A study of Mus musculus with 24 samples.

Results

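The G1 cyclins, their kinases and the inhibitors of those kinases were followed in NK cells sorted from mouse spleen while a lymphoma grew in the animal. The 10 genes were found in the deposited table by gene name: the cyclin genes Ccnd2, Ccnd3, Ccne1 and Ccne2, the kinase genes Cdk4 and Cdk6, and the inhibitor genes Cdkn1a, Cdkn1b, Cdkn2c and Cdkn2d. They are 10 of 45237 genes in the table, and all 10 were among the 17097 genes that passed the filter on low counts. Each matched a single row.

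Recipients were wild-type C57BL/6J mice, female and 7 to 9 weeks old unless the study's methods specify otherwise. Untreated animals gave the 4 control libraries. The others received RMA or RMA-KR cells into a vein. RMA is a mouse T lymphoma line that carries MHC class I and, in this study, the fluorescent protein ZsGreen from an empty vector. RMA-KR cells were made from RMA by deleting B2m, which removes surface MHC class I, and by adding ZsGreen and the NKG2D ligand Rae1-β with a lentivirus, followed by cloning, so that the line has passed through a single-cell step. NK cells were taken at an early stage (day 2; 3 libraries per tumor), at an intermediate stage (day 4 for RMA, 3 libraries; day 7 for RMA-KR, 5 libraries) and at a late stage (day 9 for RMA and day 14 for RMA-KR, 3 libraries each). The stages therefore share a day at the early stage alone, and at the later stages tumor line and day cannot be told apart. Cells had been depleted of other lineages and sorted as live NK1.1+ NKp46+ cells without CD3, CD5 or T cell receptors. For the control and late groups the study counts its samples in mice, and the number it gives is not that of the deposited controls. The labels number the samples within each group but do not say whether each came from a single animal, so p-values measure the spread between these samples.

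The 24 libraries held between 5138651 and 14863500 counts (median 10489204), with control replicate 1 the shallowest. At that depth 3 counts in the shallowest library correspond to 0.554 normalized CPM (CPM are counts per 1000000 of the TMM-adjusted library size), a floor that covers counting error alone. All 10 genes of the NK cell marker list were detected in every library. Its most abundant gene was Gzma, and its sum ran from 20437 normalized CPM in RMA-KR intermediate replicate 5 to 37628 in RMA late replicate 2. Eomes of this list was called lower at RMA late against control (log2 -0.75; edgeR adjusted p = 0.0352) and from RMA early to RMA late (-0.79; 0.0377), with 173 to 192 normalized CPM in RMA late libraries and 255 to 388 in controls.

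G1 is the part of the cell cycle in which a cell decides whether to copy its DNA. D-type cyclins bind Cdk4 and Cdk6 in response to growth signals and begin the phosphorylation of the retinoblastoma protein, which releases E2F factors; E-type cyclins, themselves E2F targets, then bind Cdk2 and carry the cell into S phase. Proteins of the INK4 family (Cdkn2c, which encodes p18, and Cdkn2d, which encodes p19) bind Cdk4 and Cdk6, whereas those of the CIP/KIP family (Cdkn1a, p21, and Cdkn1b, p27) act on cyclin-bound kinases, mainly those with Cdk2. Resting splenic NK cells divide slowly and can be driven into rapid division by cytokines such as IL-15.

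Of all the libraries, 4 stood apart from the rest. Control replicate 4 and RMA-KR intermediate replicates 3, 4 and 5 had a summed level of 10 immediate early genes, which respond within minutes to handling and other stimuli, of 1178 to 1286 normalized CPM, against 4196 to 9103 in the other 20. Junb was the most abundant gene of that list. Among those 20 the 6 RMA intermediate and RMA late libraries held 4196 to 5453 normalized CPM, below the 5916 to 9103 of the 14 others, which include controls 1 to 3 and RMA-KR late. Of the list Egr1 was called higher at RMA-KR late against control (log2 1.84; edgeR adjusted p = 0.0151), and Fosb was called lower from RMA early to RMA late (log2 -2.76; 0.0378). The part of these differences in the results of these groups was not tested. The same 4 libraries had the highest numbers of detected genes (24621 to 27820, against 15263 to 24234), and RMA-KR intermediate replicates 3, 4 and 5 had the lowest NK marker sums (20437 to 21790 normalized CPM). These samples make up 1 of 4 controls and 3 of 5 RMA-KR intermediate libraries, so a fit without all 4 is reported for the genes called against control and for the comparison of the intermediate groups, and the main RMA-KR intermediate values are given by library. The split was made after seeing the data, and the labels used here name no batch.

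**Figure D1:**
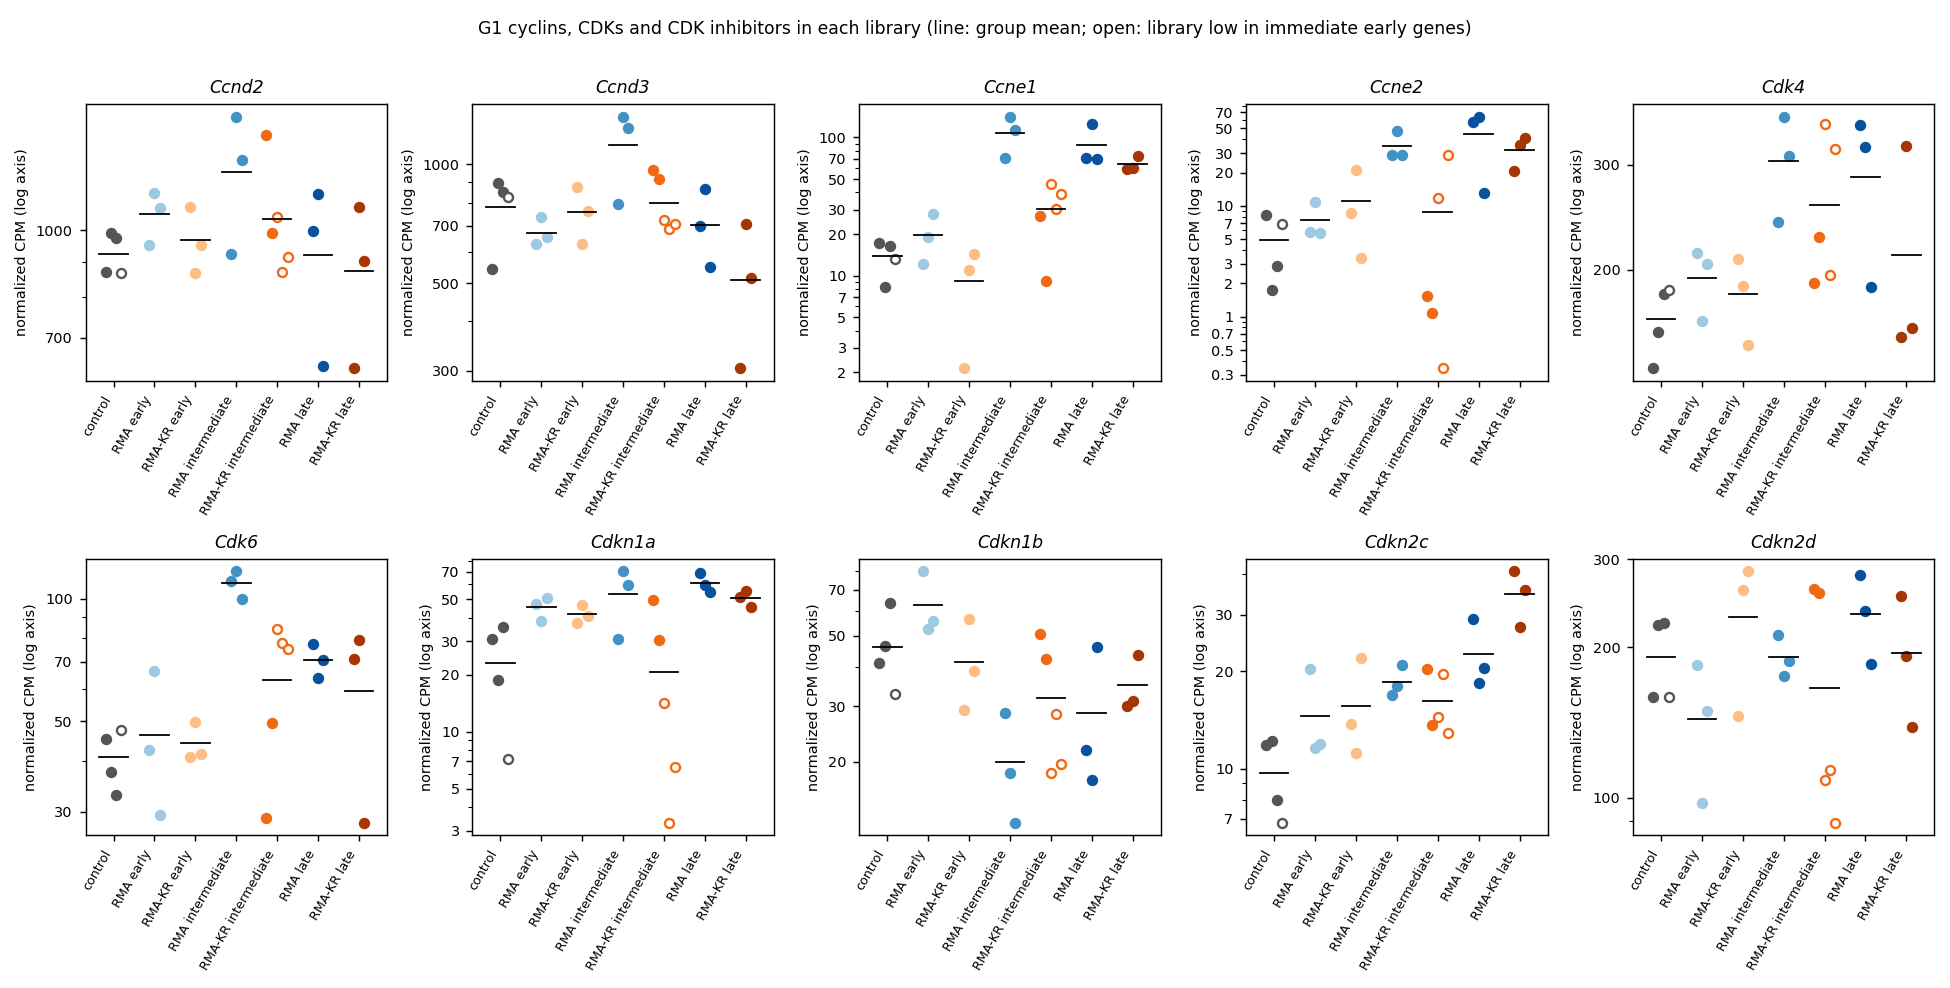
Normalized CPM (log axis, a separate range in each panel) of the 10 genes in each of the 24 libraries, by group; each point is a library, the line is the group mean, and open points are the 4 libraries low in immediate early genes. Ccne1 lay above every control in all 9 libraries of the RMA intermediate, RMA late and RMA-KR late groups. In the order of group means, neighbouring groups overlapped throughout for Ccnd2, Ccnd3, Ccne2, Cdk4, Cdkn1b, Cdkn2c and Cdkn2d.

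The D-type cyclins had the highest median normalized CPM of the 10 genes over all libraries (Ccnd2 982, Ccnd3 728). Per kilobase of the median transcript length given with the deposited table, Ccnd2 averaged 1241 ± 236 normalized CPM per kb over all 24 libraries (SD) and Ccnd3 898 ± 255, compared with 71.4 ± 62.3 for Ccne1 and 35.4 ± 34.7 for Ccne2. That length is a median over annotated transcripts, short ones included. It is 0.805 kb for Ccnd2 and 0.853 kb for Ccnd3, whose annotated exons cover 9409 and 8775 bases. For Cdkn2d it is 1.264 kb, with 1574 exon bases. The levels per kb, and the order of the genes by them, therefore depend on the length used. Cdk4 stood at 247 ± 79.6 normalized CPM per kb and Cdk6 at 41.8 ± 17.6. Among the inhibitors Cdkn2d was the most abundant by this measure (151 ± 46.4), followed by Cdkn1a (33.9 ± 16.3), Cdkn1b (15.8 ± 7.00) and Cdkn2c (10.2 ± 4.65).

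Ccnd2 (ENSMUSG00000000184, chr6:127125162-127152193, mm10) encodes a D-type cyclin expressed in lymphocytes. Its level ran from 632 to 1457 normalized CPM over all libraries, a span of 2.30-fold. The order of its group means went from RMA intermediate (1214 ± 269 normalized CPM, SD, n = 3) to RMA-KR late (872 ± 226, n = 3), and each group overlapped with the next. Against control (925 ± 66.0, n = 4) its log2 fold change was 0.39 at RMA intermediate, with a 95% interval of -0.01 to 0.80 (edgeR quasi-likelihood test, Benjamini-Hochberg adjusted p = 0.324), and it was closer to 0 in the 5 other groups.

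Ccnd3 (ENSMUSG00000034165, chr17:47505051-47599691), which encodes a D-type cyclin required for the expansion of some lymphocytes, spanned 304 to 1321 normalized CPM. It was highest at RMA intermediate (1118 ± 283 normalized CPM, n = 3) and lowest at RMA-KR late (508 ± 202, n = 3), with 779 ± 160 in controls (n = 4). Neither difference from control passed the test: the log2 fold change was 0.52 (edgeR adjusted p = 0.292) at RMA intermediate and -0.62 (edgeR adjusted p = 0.280) at RMA-KR late, and the groups overlapped. Over the 11 comparisons Ccnd3 had an unadjusted p under 0.05 in 4 and was called in none by edgeR or DESeq2. In bulk samples fewer cells of a type and less RNA per cell cannot be told apart, here and for all genes that follow.

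Cdk4 (ENSMUSG00000006728, chr10:127063534-127067920) encodes the first of the kinases that D-type cyclins bind. In control libraries 1 to 4 it was at 137, 157, 182 and 185 normalized CPM. RMA intermediate libraries had 240, 361 and 310, and RMA late libraries 350, 321 and 187. All 6 of these exceeded every control, the last of them by a small margin. All 5 RMA-KR intermediate libraries (190, 227, 350, 196 and 319) also exceeded every control. Their log2 fold change of 0.63 was not called (edgeR adjusted p = 0.711). RMA-KR late libraries had 155, 322 and 160 and overlapped with control. The log2 fold change was 0.88 ± 0.26 (SE) at RMA intermediate (edgeR adjusted p = 0.0868) and 0.79 ± 0.26 at RMA late (edgeR adjusted p = 0.129), so that neither was called at an adjusted p under 0.05. DESeq2 with default settings called the intermediate value (adjusted p = 0.0336) and not the late one (0.0514). The 9 settings other than the main edgeR fit include these defaults. Over the 9 the intermediate value was called in 6 (adjusted p 0.00792 to 0.189) and the late one in 2 (0.0458 to 0.252). Without RMA late replicate 3 the late value became 1.06 (edgeR adjusted p = 0.0311). Of the exon bases of Cdk4, 19.7% overlap exons of Tspan31 on the opposite strand, and whether counting used strand is not given in the sources used here, so reads from that stretch cannot be assigned to either gene with certainty.

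Cdk6 (ENSMUSG00000040274, chr5:3341485-3531008), the second partner of the D-type cyclins, rose at RMA intermediate. Controls 1 to 4 measured 45.3, 37.5, 33.0 and 47.7 normalized CPM, and the RMA intermediate libraries 111, 117 and 99.9. The RMA intermediate values lay above those of all other libraries, and the group did not overlap with RMA late (77.5, 63.8 and 70.8), the next in the order of means. The fold change against control was 2.67 (log2 1.42 ± 0.34, SE; edgeR adjusted p = 0.0232). The call was lost when any of the 7 libraries of these groups was left out (edgeR adjusted p = 0.0530 to 0.0916), while the log2 fold change stayed between 1.29 and 1.51.

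The E-type cyclins showed the widest span. Ccne1 (ENSMUSG00000002068, chr7:38097984-38107534) encodes cyclin E1, the activator of Cdk2 at the entry into S phase. Control libraries 1 to 4 held 17.2, 8.29, 16.3 and 13.3 normalized CPM. In RMA-bearing mice the early libraries had 12.1, 19.1 and 27.8, the intermediate libraries 70.9, 141 and 113, and the late libraries 71.2, 125 and 69.7. In RMA-KR-bearing mice the early libraries had 2.13, 10.95 and 14.2 and the late libraries 58.7, 60.3 and 73.7. Thus every RMA intermediate, RMA late and RMA-KR late library was above every control and every early library, with no overlap, and the early groups overlapped with control.

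At RMA intermediate 2 of the 10 members were called against control, Ccne1 and Cdk6, both higher; over all genes tested 2.35% were called in either direction and 1.85% higher. Ccne1 rose 7.87-fold (log2 2.98 ± 0.50, SE, n = 3 and 4; edgeR adjusted p = 0.00197). It was higher in 3 of 3 libraries. The median log2 fold change of all tested genes in this comparison was -0.29, and the members' median was 0.91.

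At RMA late 1 of the 10 members was called, Ccne1, against 2.66% of all genes in either direction and 2.14% higher. It rose 6.44-fold (log2 2.69 ± 0.50; edgeR adjusted p = 0.00338). Both RMA calls for Ccne1 remained when each library was left out in turn, with an adjusted p of at most 0.0145 at the intermediate and 0.0281 at the late stage by edgeR. Without RMA late replicate 3, Ccne2 and Cdk4 were called as well, 3 members in all, beside 2.90% of all genes in that fit.

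At RMA-KR late 2 of the 10 members were called, Ccne1 and Cdkn2c, both higher, where 1.22% of all genes were called in either direction and 0.889% higher. Ccne1 rose 4.67-fold (log2 2.22 ± 0.49; edgeR adjusted p = 0.0235). The call held without RMA-KR late replicate 2 (edgeR adjusted p = 0.0367) and was lost when any of the 6 other libraries was left out, namely control replicates 1, 2, 3 and 4 and RMA-KR late replicates 1 and 3, with an adjusted p between 0.0512 and 0.0973 by edgeR and a log2 fold change of 2.03 to 2.34. It was also lost with a term for the replicate number (edgeR adjusted p = 0.0509) and without the 4 libraries low in immediate early genes (edgeR adjusted p = 0.0680), a setting chosen after seeing the data.

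Changes over the course of each tumor compare no control library, although the controls enter the estimate of each gene's spread. Ccne1 was the single member called by edgeR in these comparisons. It rose 4.50-fold from RMA early to RMA late (log2 2.17 ± 0.54; edgeR adjusted p = 0.0325), 1 of 10 members called beside 2.87% of all genes in either direction, 2.18% higher and 0.696% lower. From RMA-KR early to RMA-KR late it rose 7.03-fold (log2 2.81 ± 0.56; edgeR adjusted p = 0.0269), again 1 of 10, beside 0.392%, 0.287% and 0.105%. DESeq2 with default settings called Ccne1 in both and also Cdkn1b for RMA (log2 -1.22, adjusted p = 0.0477) and Cdkn2c for RMA-KR (log2 1.13, adjusted p = 0.0354). Over all genes it called 7.72% for RMA and 3.35% for RMA-KR. Without a filter on low counts edgeR called Ccne2 beside Ccne1 for RMA (adjusted p = 0.00529). The main Ccne1 call for RMA was lost without RMA early replicate 1 or 2 or RMA late replicate 1 or 2 (edgeR adjusted p = 0.162, 0.0933, 0.0645 and 0.178). That for RMA-KR was lost without RMA-KR early replicate 1 or 2 (edgeR adjusted p = 0.122 and 0.0754), where replicate 1 held the lowest Ccne1 value of all libraries. With the libraries of the compared groups alone, 0 members were called in either time course by edgeR, Ccne1 having an adjusted p of 0.122 for RMA and 0.254 for RMA-KR; genes called fell from 491 to 1 and from 67 to 2. The comparisons with control share the control libraries, and the time courses share their tumor libraries with them.

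**Figure D2:**
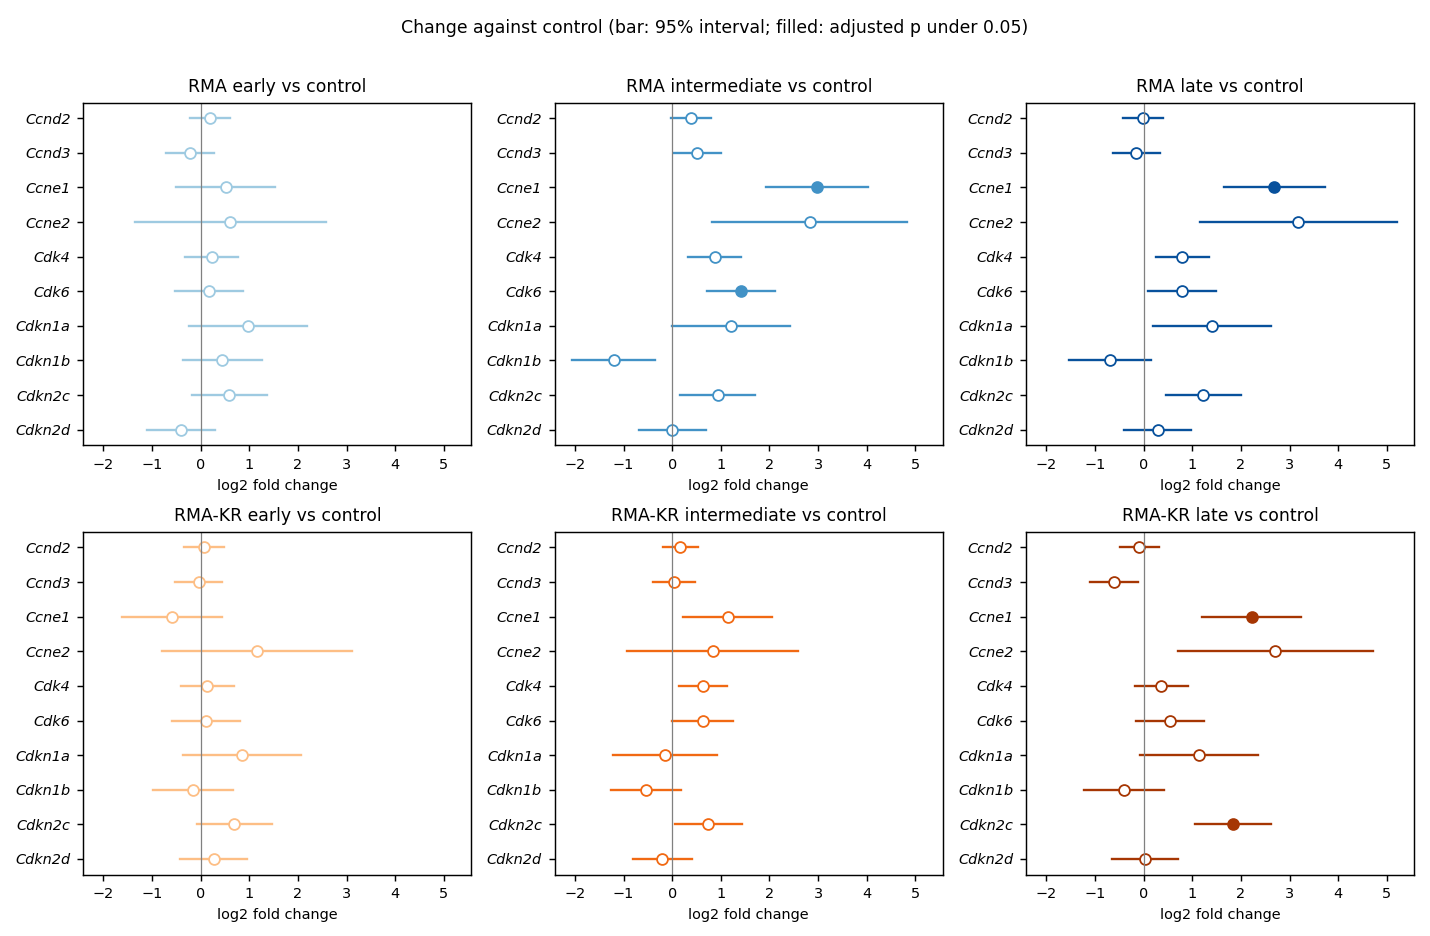
Log2 fold change of each gene against control in the 6 tumor groups; points are edgeR estimates, bars are 95% intervals, and filled points have an adjusted p under 0.05 over all genes tested. Filled points are Ccne1 at RMA intermediate, RMA late and RMA-KR late, Cdk6 at RMA intermediate and Cdkn2c at RMA-KR late.

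Ccne2 (ENSMUSG00000028212, chr4:11191351-11204779) encodes cyclin E2, with a function that overlaps that of cyclin E1. It was scarce in controls, at 8.32, 1.74, 2.84 and 6.87 normalized CPM (18 to 77 counts). The RMA intermediate libraries reached 28.8, 47.5 and 28.8, the RMA late libraries 56.6, 63.7 and 13.1 and the RMA-KR late libraries 20.5, 35.4 and 40.7. None of these groups overlapped with control. The log2 fold change was 2.83 ± 0.97 (edgeR adjusted p = 0.154), 3.18 ± 0.98 (0.0925) and 2.71 ± 0.97 (0.225) in that order, with no call by edgeR. DESeq2 with default settings called Ccne2 at RMA intermediate (adjusted p = 0.0375) and RMA late (0.0112) and not at RMA-KR late (0.0573). The 8 settings other than the main edgeR fit include these defaults. Over the 8 Ccne2 was called in 6, 6 and 1, with an adjusted p of 0.000133 to 0.343, 9.38e-06 to 0.255 and 0.000419 to 0.428. The late RMA value was called without RMA late replicate 3 (log2 3.66, edgeR adjusted p = 0.0497). Exons of Ints8 on the opposite strand cover 17.4% of the exon bases of Ccne2, with the same limit as for Cdk4.

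Summed per kilobase, the E-type genes made up 0.717 to 2.44% of the 4 cyclin transcripts in control libraries. The size of this share depends on the median lengths used, which are the same for every library. That share was 7.17 to 8.54% at RMA intermediate, 8.62 to 11.6% at RMA late and 6.95 to 10.3% at RMA-KR late. It was 0.817 to 3.04% at RMA-KR early and 1.56 to 2.54% at RMA early. In this description the 9 libraries of the former 3 groups lay above the others, of which RMA-KR intermediate replicate 5 came nearest, at 5.60%. RMA-KR late replicate 1, at 10.3%, had the lowest D-type sum of all libraries (1141 normalized CPM per kb). Its E-type sum of 132 was the lowest of those 9, against at most 42.9 in controls.

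**Figure D3:**
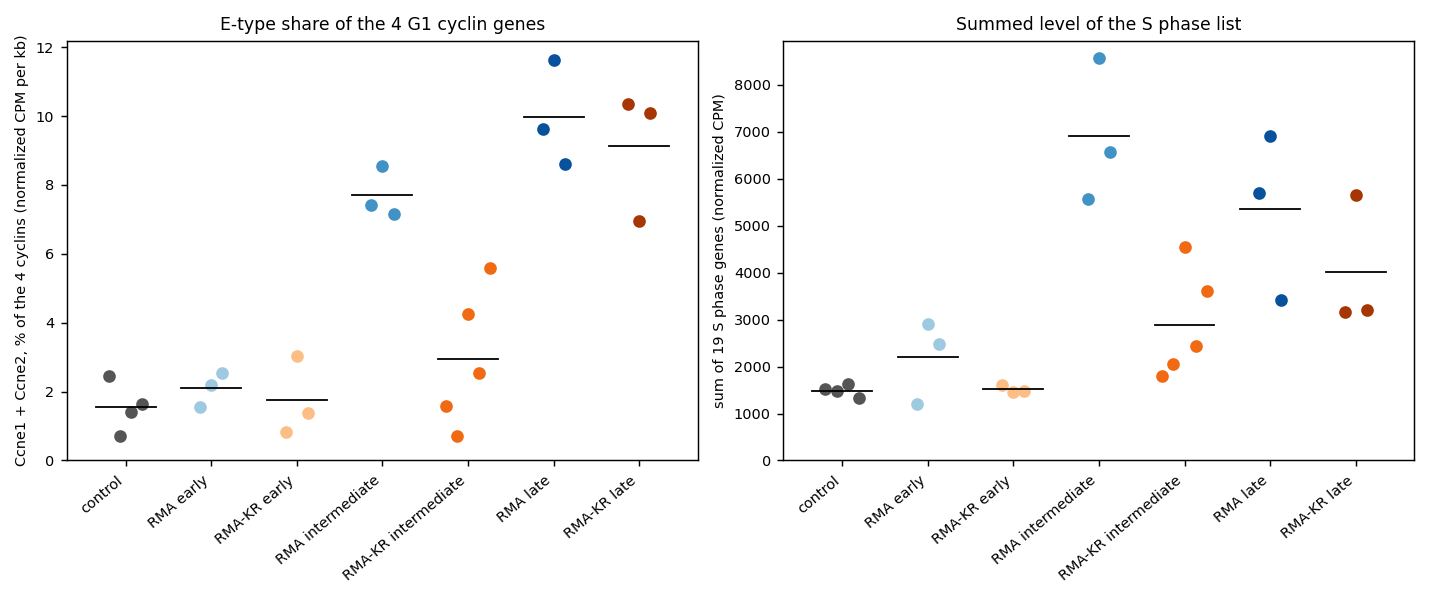
Left, Ccne1 plus Ccne2 as a percentage of the summed level of Ccnd2, Ccnd3, Ccne1 and Ccne2 (normalized CPM per kb); right, summed normalized CPM of 19 S phase genes; each point is a library and the line is the group mean. The 3 groups with the highest means in both panels are RMA intermediate, RMA late and RMA-KR late.

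Sequences before the start of 8 of the 10 genes were matched in a RefSeq table (GRCm38.p6, the assembly also named mm10), with 11 starts in all; Ccnd2 and Ccne2 were the others. The 250 bases before each start were searched on both strands for 3 motifs: the E2F motif in the form TTCCCGC or the form TTCGCGC or the form TTGCCGC or the form TTGGCGC, the E-box of Myc and related factors with the letters CACGTG, and the GC box with the letters GGGCGG. Of 32851 promoters of that length, 7.89% held an E2F form, 6.02% an E-box and 32.7% a GC box. Stretches of Ccne1 and Cdk4 that lie outside annotated exons are shown because Ccne1 is the gene called most often and because Cdk4 carried 4 E-boxes, a number of 3 or more being found in 20 of all promoters (0.0609%). The motifs were chosen after the promoters had been read, so this share cannot test whether Cdk4 stands out. Capitals mark the GC box, on either strand, in Ccne1 (chr7:38107535-38107740, minus strand) and the E-box in Cdk4 (chr10:127063285-127063533, plus strand).
Ccne1: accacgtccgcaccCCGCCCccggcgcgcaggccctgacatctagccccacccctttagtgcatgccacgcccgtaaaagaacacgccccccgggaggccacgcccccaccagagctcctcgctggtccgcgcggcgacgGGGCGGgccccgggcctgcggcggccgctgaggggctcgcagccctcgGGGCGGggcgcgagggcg
Cdk4: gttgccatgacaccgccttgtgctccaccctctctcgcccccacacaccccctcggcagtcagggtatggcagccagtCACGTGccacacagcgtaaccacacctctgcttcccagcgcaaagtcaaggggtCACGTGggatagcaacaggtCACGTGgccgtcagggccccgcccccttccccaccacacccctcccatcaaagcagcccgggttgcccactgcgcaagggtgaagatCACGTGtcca
The full 250 bases of Ccne1 held 4 GC boxes, no E-box and none of the E2F forms searched. A number of 3 or more GC boxes was found in 8.47% of all promoters, and 8 of the 11 member starts had at least 1, with 3 each in Cdkn2d and in the second start of Cdkn2c. Cdk6 had 1 E-box, and the second start of Cdkn2c had 1 E2F form. A match is a string of letters in a window, and its use in NK cells was not tested.

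The INK4 inhibitors behaved differently from each other. Cdkn2c (ENSMUSG00000028551, chr4:109660876-109667189) was at 11.8, 12.2, 8.01 and 6.79 normalized CPM in controls and at 40.9, 27.5 and 35.8 in RMA-KR late libraries. It was the member with the highest RMA-KR late mean relative to control after the E-type cyclins, and the groups did not overlap. It rose 3.58-fold (log2 1.84 ± 0.37, SE; edgeR adjusted p = 0.0125). That call was lost without control replicate 3 or 4 or RMA-KR late replicate 1 (edgeR adjusted p = 0.0549, 0.0575 and 0.0942), without a filter on low counts (0.0838), with the libraries of the compared groups alone (0.0525) and without the 4 libraries low in immediate early genes (0.0733).

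RMA late libraries had 29.1, 18.4 and 20.5 normalized CPM of Cdkn2c, all above the controls, with a log2 fold change of 1.23 ± 0.37 (edgeR adjusted p = 0.0861). Of 9 other settings 3 called this difference (adjusted p 0.00469 to 0.539 over the 9), among them DESeq2 with default settings (0.00564). Between the late groups the log2 fold change of Cdkn2c was 0.61, with a 95% interval of -0.21 to 1.44 (edgeR adjusted p = 0.706). The RMA intermediate group mean was 18.6 ± 2.06 (n = 3) and that of RMA-KR intermediate 16.2 ± 3.53 (n = 5), and each group overlapped with its neighbour in the order of means, RMA-KR late with RMA late included.

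Cdkn2d (ENSMUSG00000096472, chr9:21288410-21291407) spanned 89.1 to 284 normalized CPM, and all neighbouring groups overlapped. Its log2 fold change against control lay between -0.41 (RMA early) and 0.29 (RMA late), and none was called. Within RMA-KR intermediate it split with the immediate early level: 261 and 256 normalized CPM in replicates 1 and 2, and 109, 114 and 89.1 in replicates 3, 4 and 5. Control replicate 4, also low in immediate early genes, had 159, and control replicate 1, which is not, had 159 as well.

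Cdkn1a (ENSMUSG00000023067, chr17:29090976-29100727), a target of p53 that also responds to stress and growth signals, followed the same split. The 4 libraries low in immediate early genes held 3.30 to 14.2 normalized CPM, and the other 20 held 18.8 to 70.4, with no overlap. Controls 1 to 4 had 31.0, 18.8, 35.6 and 7.14, and RMA late libraries 68.6, 59.5 and 54.7. Its log2 fold change at RMA late was 1.40 ± 0.59 (edgeR adjusted p = 0.276), and 1.11 without the 4 libraries (edgeR adjusted p = 0.0972). The part of the immediate early level in the Cdkn1a values was not tested.

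**Figure D4:**
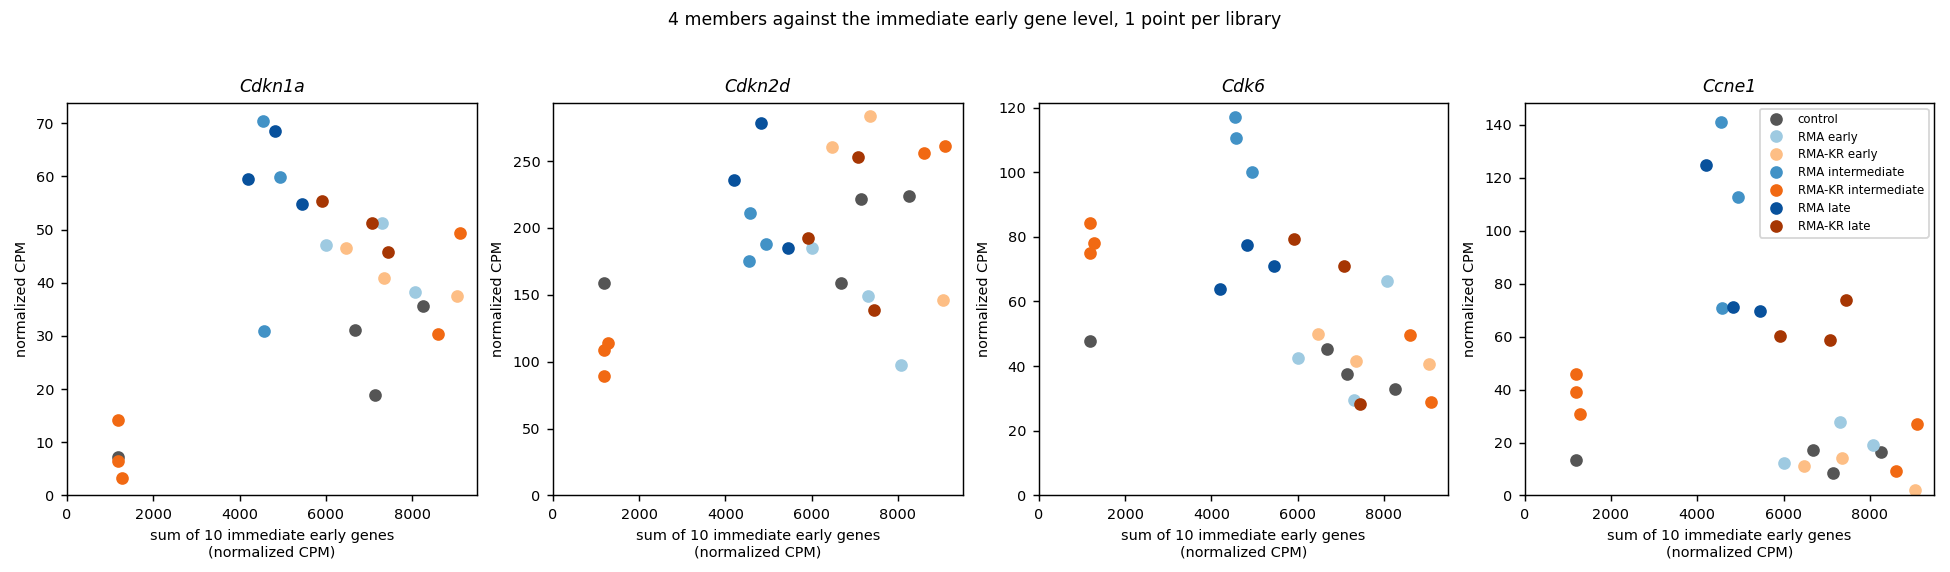
Normalized CPM of Cdkn1a, Cdkn2d, Cdk6 and Ccne1 against the summed normalized CPM of 10 immediate early genes, 1 point per library, colored by group. The 4 libraries at 1178 to 1286 on the x axis have the lowest Cdkn1a values (3.30 to 14.2), whereas their Ccne1 values (13.3 to 45.9) lie within the range of the others.

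Cdkn1b (ENSMUSG00000003031, chr6:134920401-134925513), which encodes p27, an inhibitor that is abundant in resting lymphocytes, was the single member with a negative log2 fold change at RMA intermediate. These libraries had 28.6, 18.4 and 12.8 normalized CPM, below the controls at 41.2, 46.4, 63.5 and 32.9, with no overlap. The log2 fold change was -1.20 ± 0.41 (edgeR adjusted p = 0.153) and did not pass the test. DESeq2 with its default settings called it (adjusted p = 0.0407), as 1 of 4 calls in 9 other settings (0.0387 to 0.282). At RMA late the libraries split, with 21.8 and 17.5 in replicates 1 and 2 and 46.0 in replicate 3.

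No member was called at RMA early against control (0 of 10 by edgeR and by DESeq2, 0 at an unadjusted p under 0.05 by edgeR). Over all genes edgeR called 0% there and DESeq2 0.404%, and 7.04% had an unadjusted p under 0.05 in edgeR. The same member counts hold for RMA-KR early, where the shares were 0.0994%, 1.26% and 8.71%. Cdkn1a lay at 38.4 to 51.2 normalized CPM at RMA early and 37.6 to 46.6 at RMA-KR early, against at most 35.6 in controls. How many of all genes lay above every control in this way was not computed. The 95% interval of the Cdkn1a log2 fold change was -0.23 to 2.19 and -0.36 to 2.06 (edgeR adjusted p = 0.731 and 0.756).

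At RMA-KR intermediate 0 of 10 members were called against control by edgeR and by DESeq2. Of these 4 had an unadjusted p under 0.05 in edgeR (Ccne1, Cdk4, Cdk6 and Cdkn2c, all higher). Over all genes 5.91% had such a p, and edgeR called 0.0175% and DESeq2 0.357%. Ccne1 stood at 27.0 and 9.09 normalized CPM in replicates 1 and 2, against 8.29 to 17.2 in controls 1 to 3. In replicates 3, 4 and 5 it was at 45.9, 30.6 and 39.1, against 13.3 in control replicate 4, the single control with a like immediate early level. Cdk6 showed the same division, with 28.9 and 49.6 in the former libraries and 84.3, 78.0 and 75.1 in the latter, against 47.7 in control replicate 4. Over the whole group the log2 fold change of Ccne1 was 1.14 ± 0.44 (edgeR adjusted p = 0.737), and without the 4 libraries it was 0.39 (0.957), from 2 RMA-KR intermediate libraries and 3 controls. Cdk6 moved from 0.63 to 0.04 in the same way. A single control of the low kind cannot show its own spread.

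Without these 4 libraries, 3 members were called at RMA intermediate (Ccne1, Ccne2 and Cdk6), 2 at RMA late (Ccne1 and Ccne2) and 0 at RMA-KR late, where Ccne1 had a log2 fold change of 2.25 (edgeR adjusted p = 0.0680) and Cdkn2c of 1.74 (edgeR adjusted p = 0.0733). Of the 17958 genes tested in this fit, 1.48%, 1.68% and 0.574% were called in either direction. This setting was chosen after seeing the data.

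Direct comparisons of the tumor models asked whether NK cells facing RMA-KR, which lacks MHC class I and carries an NKG2D ligand, differed from those facing RMA. At the early stage, on the same day, 0 of 10 members were called by edgeR and by DESeq2, with 1 at an unadjusted p under 0.05 in edgeR. Over all genes edgeR called 0.339% and DESeq2 2.30%, and 12.3% had an unadjusted p under 0.05 in edgeR. At the late stage 0 of 10 were called by either tool, with 0 at an unadjusted p under 0.05 in edgeR. Over all genes edgeR called 0% and DESeq2 0.269%, and 7.31% had an unadjusted p under 0.05 in edgeR. These results do not show that the late groups were alike, since the spread was large.

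At the intermediate stage 0 of 10 members were called by edgeR and 1 by DESeq2, with 5 at an unadjusted p under 0.05 in edgeR. The share of all genes called was 0.643% by edgeR and 2.503% by DESeq2, and 14.2% had an unadjusted p under 0.05 in edgeR. Ccne1 was lower in RMA-KR intermediate in every one of the 5 libraries than in all 3 RMA intermediate libraries, with a log2 fold change of -1.84 ± 0.45 and a 95% interval of -2.78 to -0.90 (edgeR adjusted p = 0.0644). DESeq2 called it (adjusted p = 0.0105), as 1 of 4 calls in 9 other settings (0.000246 to 0.181). Cdk6 also showed no overlap between these groups (log2 -0.79 ± 0.32; edgeR adjusted p = 0.342). Without the 4 libraries low in immediate early genes, which leaves 2 RMA-KR intermediate libraries, the log2 fold change was -2.57 for Ccne1 (edgeR adjusted p = 0.0952) and -1.47 for Cdk6 (0.137), and Ccne2 was called (-4.72; 0.0299). With all libraries Ccne2 was not called (log2 -2.002; edgeR adjusted p = 0.347), and the groups overlapped. Its RMA-KR intermediate replicates 1 and 2 held 1.53 and 1.08 normalized CPM. Replicates 3, 4 and 5, which that fit leaves out, held 11.7, 0.341 and 29.1. The last of these lies within the RMA intermediate range of 28.8 to 47.5. Days 7 and 4 are compared here.

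Other genes of the pathway were read from 7 lists with 87 genes. Among 14 other G1 regulators, 12 were tested, Cdkn2a and Cdkn2b being too low. At RMA intermediate 2 of the 12 rose and none fell, with a median log2 fold change of 0.17 for the list. Cdk2, the kinase that cyclin E activates, went from 25.9 ± 3.63 normalized CPM in controls to 111 ± 18.2 (log2 2.09 ± 0.31; edgeR adjusted p = 0.000439). Cks1b, a small protein that binds cyclin-dependent kinases and takes part in the degradation of p27, went from 8.50 ± 5.44 to 94.9 ± 8.52 (log2 3.50 ± 0.72; edgeR adjusted p = 0.00786).

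Both genes also rose at RMA late (Cdk2 log2 1.89 ± 0.31, edgeR adjusted p = 0.00119; Cks1b log2 3.63 ± 0.72, 0.00589), and Cks1b rose at RMA-KR late (log2 2.95 ± 0.70; edgeR adjusted p = 0.0371). At RMA early Cdk2 was at 73.5, 82.7 and 41.2 normalized CPM, above every control (at most 31.1), with a log2 fold change of 1.34 ± 0.30 that edgeR did not call (adjusted p = 0.238), and DESeq2 called 1 of the 12 genes there. Skp2, which encodes the F-box protein that marks p27 for degradation, had a log2 fold change of 2.42 at RMA late that was not called (edgeR adjusted p = 0.290). Cdk2 was lower in RMA-KR intermediate than in RMA intermediate (42.6 ± 13.1, n = 5, against 111 ± 18.2 normalized CPM, n = 3; log2 -1.38 ± 0.28; edgeR adjusted p = 0.0223). It was at 32.0 and 60.6 in RMA-KR intermediate replicates 1 and 2 and at 49.9, 42.0 and 28.6 in replicates 3, 4 and 5, so that the libraries of each kind overlapped. Without the 4 libraries low in immediate early genes this difference was not called (log2 -1.25; edgeR adjusted p = 0.220).

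The S phase genes moved most often. Of 19, 15 rose at RMA intermediate, 11 at RMA late and 7 at RMA-KR late, and none fell in these comparisons. Their median log2 fold changes were 2.43, 2.13 and 1.56, beside -0.29, -0.18 and -0.18 for all genes. Rrm2, a subunit of ribonucleotide reductase, had the smallest p at each of these stages, with log2 fold changes of 3.94 ± 0.53, 3.65 ± 0.53 and 3.34 ± 0.52 (edgeR adjusted p = 0.000221, 0.000442 and 0.00156). At RMA-KR intermediate 0 of 19 were called by edgeR against control, with 9 at an unadjusted p under 0.05, 2 by DESeq2 and a median of 1.15, and 4 of 19 were lower than in RMA intermediate, led by Rrm2 (log2 -3.31 ± 0.48; edgeR adjusted p = 0.000820). The summed level of the 19 genes in that group was 1804 and 2050 normalized CPM in replicates 1 and 2 and 4555, 2441 and 3611 in replicates 3, 4 and 5, against 1488 to 1625 in controls 1 to 3 and 1320 in control replicate 4. The 3 libraries low in immediate early genes thus lay above the others of their group. Without the 4 libraries of that kind the median against control was 0.28, with 0 of 19 called by edgeR and 1 at an unadjusted p under 0.05. Against RMA intermediate 5 of 19 were then lower, 3 of them called in both fits, with Rrm2 at -3.42 (edgeR adjusted p = 0.0279).

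Of 10 E2F and DP factors, 2 rose at RMA intermediate, 1 at RMA late and 1 at RMA-KR late. E2f2, an activating E2F, had the smallest p in each case, from 10.4 ± 5.63 normalized CPM in controls to 68.3 ± 9.70, 65.2 ± 17.3 and 57.3 ± 13.2 (edgeR adjusted p = 0.00824, 0.00857 and 0.0255). Of the 9 pocket protein and DREAM genes, 0 were called in these comparisons by edgeR, with 2, 2 and 0 at an unadjusted p under 0.05 and 1, 0 and 0 by DESeq2. Their median log2 fold changes were 0.26, 0.39 and 0.29. Of 12 growth and cytokine genes 2 rose at RMA intermediate, and 1 at each late stage. Myc, which drives cell growth, had the smallest p, with log2 fold changes of 1.20 ± 0.22, 0.84 ± 0.22 and 1.13 ± 0.22 (edgeR adjusted p = 0.00415, 0.0387 and 0.0102).

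Of 10 genes tied to rest from division, 3 fell at RMA intermediate, 3 at RMA late and 1 at RMA-KR late, and none rose, where 0.491%, 0.521% and 0.328% of all genes were called lower. Their median log2 fold changes were -0.80, -0.69 and -0.34, beside -0.29, -0.18 and -0.18 for all genes, and 0, 0 and 2 of the 10 had a positive value. Txnip, which restrains glucose uptake, had the smallest p among those that fell at RMA intermediate (log2 -1.75 ± 0.34; edgeR adjusted p = 0.00573) and at RMA-KR late (-1.61 ± 0.34; 0.0153), and Ypel3 at RMA late (-2.32 ± 0.46; 0.00588). Among 12 tested targets of p53 other than Cdkn1a, 2 fell at RMA intermediate, led by Sesn1 (log2 -0.93 ± 0.23; edgeR adjusted p = 0.0275), and 0 were called by edgeR at RMA late (4 at an unadjusted p under 0.05, 2 by DESeq2) and at RMA-KR late (3 and 0).

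The list genes were also tested without the 4 libraries low in immediate early genes, a setting chosen after seeing the data. Of 19 S phase genes 12 rose at RMA intermediate, 8 at RMA late and 3 at RMA-KR late, of which 12, 7 and 3 were also called with all libraries, and the medians were 2.44, 1.89 and 1.48. The shares of all genes called in this fit were 1.48%, 1.68% and 0.574%. Rrm2 remained called at each (edgeR adjusted p = 0.00262, 0.00570 and 0.0134). Cdk2 and Cks1b remained called at RMA intermediate (0.00250 and 0.0487) and RMA late (0.00570 and 0.0394), whereas Cks1b at RMA-KR late did not (log2 2.94; 0.133). E2f2 was called at both RMA stages (0.0372 and 0.0404) and not at RMA-KR late (log2 2.48; 0.0880), and Myc at RMA intermediate and RMA-KR late (0.0120 and 0.0255) and not at RMA late (log2 0.79; 0.0896). Of the 10 genes tied to rest 4, 3 and 1 fell, of which 2, 2 and 0 were also called with all libraries. Txnip kept its call at RMA intermediate (0.0220) and lost it at RMA-KR late (log2 -1.57; 0.0613), and Ypel3 kept its call at RMA late (0.0274). Among the p53 targets 0 were called by edgeR in these comparisons, with 3, 4 and 3 at an unadjusted p under 0.05, and Sesn1 had an adjusted p of 0.106 at RMA intermediate.

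In the time courses, 4 of 19 S phase genes rose from RMA early to RMA late, led by Rrm1 (log2 1.47), with a median log2 fold change of 1.47 for the list. In the same comparison 1 of 10 E2F and DP factors rose, E2f2 (log2 2.56 ± 0.62; edgeR adjusted p = 0.0268), and 1 of 12 p53 targets, Bax (0.89 ± 0.22; 0.0335), while 1 of 10 genes tied to rest fell, Klf2 (-1.11 ± 0.27; 0.0265). Over all genes 2.18% were called higher and 0.696% lower. Without the 4 libraries low in immediate early genes, 3 of 19 S phase genes rose and 2.24% of all genes were called. Of those 3, 2 were also called with all libraries. E2f2 and Klf2 were called in that fit (edgeR adjusted p = 0.0433 and 0.00450), and Bax was not (log2 0.85, edgeR adjusted p = 0.0697). With the compared groups alone, 1 gene of all was called. From RMA-KR early to RMA-KR late 0 of 19 were called by edgeR, with 13 at an unadjusted p under 0.05, 7 by DESeq2 and a median of 1.51. At the early stages 0 of 19 were called against control by edgeR and by DESeq2, with 5 at an unadjusted p under 0.05 for RMA and 3 for RMA-KR.

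Genes with the most similar pattern were sought by Pearson correlation of log2 CPM over the 24 libraries, which share groups and depth, as a description. For Ccne1 these were Ncaph (r = 0.932), Chaf1a (0.913) and Ska1 (0.903). For Cdk6 they were Cenps (0.836), Pole (0.832) and Cdc6 (0.818), and for Cdkn2c they were Ndfip2 (0.822), Bcap29 (0.809) and Rad51d (0.783).

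Dividing tumor cells also transcribe these genes, so markers of other cells were read beside them. The T cell and T lymphoma list (10 genes) summed to 258 to 279 normalized CPM at RMA intermediate and to 261 to 336 in controls. At RMA late it was 400 to 485, above all controls, and at RMA-KR late 343 to 410, while RMA-KR early reached 473 and RMA early 398. At RMA-KR intermediate it was 309 and 337 in replicates 1 and 2 and 389, 424 and 399 in replicates 3, 4 and 5, the libraries low in immediate early genes. Trbc1 made up 81.3% of its level, and NK cells also transcribe that locus. Cd3e, Cd4, Cd5, Cd8a and Cd8b1 were at 0 in 12, 17, 12, 18 and 18 of the 24 libraries, and reached 23.5 normalized CPM for Cd5 and at most 5.00 for the 4 others. Cd3d and Trac were at 0 in none, with at most 30.6 and 19.9 normalized CPM, and Cd3g was at 0 in 1, with at most 24.2. None of the 8 tested genes of the list was called against control in any group by edgeR, with 1 or 2 at an unadjusted p under 0.05 in each group and 1 by DESeq2 at RMA intermediate and likewise at RMA late. Among the comparisons that leave out control, Thy1 of this list was called higher from RMA early to RMA late (log2 1.73; edgeR adjusted p = 0.0392), where Ccne1 was called as well. Thy1 was at 9.87, 20.001 and 19.8 normalized CPM in RMA early libraries, at 59.2, 59.7 and 45.6 in RMA late libraries and at 24.2, 23.0, 11.7 and 25.0 in controls. RMA intermediate libraries held 46.7, 51.0 and 57.9, RMA-KR late libraries 28.1, 58.5 and 25.3 and RMA-KR early libraries 9.74, 35.1 and 31.7. RMA-KR intermediate replicates 1 and 2 held 31.4 and 23.7, below the 35.6, 49.6 and 53.7 of replicates 3, 4 and 5. Mouse NK cells can also express Thy1. The part of the cells behind these sums and behind Thy1 in the Ccne1, Cdk6 and S phase values was not tested.

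B cell markers summed to 213 to 488 normalized CPM, of which Ighm was 98.4%, and Cd79a, Cd79b, Ms4a1 and Pax5 were at 0 in 5, 4, 17 and 14 libraries, with at most 17.4 normalized CPM, for Cd79b. The macrophage and monocyte sum, mostly Cd68, was 36.2 to 78.5 at RMA-KR late and 33.2 to 50.9 at RMA late against 8.74 to 18.1 in controls. It was also 26.6 to 30.1 at RMA-KR early and 3.20 to 41.7 at RMA early, where no member was called, 16.5 to 20.3 at RMA intermediate and 8.64 to 28.9 at RMA-KR intermediate. None of its 3 tested genes was called by edgeR against control, with 2 at an unadjusted p under 0.05 and 1 by DESeq2 at RMA-KR late and 0 of each in the other groups. The plasma cell sum, mostly Igkc, reached 152 and 40.1 in RMA-KR late replicates 2 and 3, 69.3 in RMA-KR early replicate 1, which held the lowest Ccne1 value, and 15.1 in RMA early replicate 2, against at most 4.82 in controls. Of 2 tested genes 0 were called by edgeR at RMA-KR late, with 1 at an unadjusted p under 0.05 and 1 by DESeq2. The part of both lists in the Cdkn2c and Ccne1 values was not tested. Granulocyte and erythroid sums stayed at or below 11.7 and 3.70 normalized CPM, with S100a8 at 0 in 21 libraries.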

How the data were processed

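RNA from sorted splenic NK cells had been sequenced as polyA-selected mRNA libraries. Reads had been trimmed with cutadapt 1.10, depleted of ribosomal reads with Bowtie2 2.2.8, aligned to mm10 with STAR 2.5.3a and counted per gene with HTSeq 0.6.1p1. The values used here are the raw read counts per gene deposited for 24 libraries. The median transcript length in bases that the authors gave with them served as an other, descriptive unit. A further 48 columns of normalized values, and those in which the study's own contrasts are reported (fold changes and p-values), were not used.

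Genes passing edgeR's filterByExpr over the 7 groups (17097 of 45237) were tested with edgeR 4.0.16 in R 4.3.3 (TMM, robust quasi-likelihood fit, 1 mean per group over all 24 libraries, two-sided). P-values were adjusted by Benjamini-Hochberg over all genes tested, and a gene was called at an adjusted p under 0.05; rose and fell are used for called genes. Standard errors and 95% intervals derive from the F statistic. In edgeR 7.04%, 15.9% and 14.0% of all genes had an unadjusted p under 0.05 at RMA early, intermediate and late against control. For RMA-KR the shares were 8.71%, 5.91% and 14.2%. Between the tumor models they were 12.3%, 14.2% and 7.31%, and over the RMA and RMA-KR courses 17.2% and 15.0%. No such share was computed for the fit without the 4 libraries low in immediate early genes. The common biological coefficient of variation was 0.852. All 31 pairs of libraries within a group differed by more than sampling noise (chi-square per degree of freedom 18.1 to 104). The procedure was tested on simulated data.

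Alternatives were size factors from DESeq2 1.42.0, its test with default settings or betaPrior=TRUE, filters that kept every gene with a count or those with 10 or more in each library, a replicate block, the compared groups alone, each library left out, and a fold change above 2 as well. Added after seeing the data were a fit without the 4 libraries low in immediate early genes and a term for them. Named genes are the 10 members, other G1 regulators, in each list the gene with the smallest p in each direction, and the 3 genes most correlated with each called member (log2 CPM, prior count 2). The members and lists were chosen with earlier results of these data known, and the motifs after the promoters had been read. Promoters are from RefSeq (GRCm38.p6) and exon overlaps from GENCODE on the same assembly. Values of some marker genes are not reported here.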

Additional observations from a re-analysis of the deposited data

How the results depend on the processing

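Leaving out each library in turn gave 1 to 1 members called at RMA intermediate against control (main count 2), 1 to 3 at RMA late (1), 0 to 2 at RMA-KR late (2), 0 to 1 from RMA early to RMA late (1) and 0 to 1 from RMA-KR early to RMA-KR late (1). It gave 0 in every fit of the 6 other comparisons by edgeR.

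With DESeq2 defaults 5 members were called at RMA intermediate, 3 at RMA late, 1 between the intermediate groups, 2 from RMA early to late and 2 from RMA-KR early to late. With betaPrior=TRUE these counts were 5, 4, 1, 2 and 2. Without a filter on low counts they were 4, 2, 2 and 2 for RMA intermediate, RMA late, the intermediate groups and the RMA course, with Ccne2 in place of Cdkn2c at RMA-KR late. With at least 10 counts in every library, which left 9 members, 3 were called at RMA intermediate, 2 at RMA late and 1 between the intermediate groups. Of the 7800 genes tested in that fit 7.65%, 8.26% and 1.81% were called. With the compared groups alone 5 were called at RMA intermediate, 4 at RMA late, 1 at RMA-KR late and 0 in both time courses. Those fits called 10.2%, 6.49% and 1.03% of all genes against control, and 0.00870% and 0.0168% in the RMA and RMA-KR courses. After seeing the data, 2 settings were added. A term for the 4 libraries low in immediate early genes gave 5 at RMA intermediate and 2 at RMA late. It called 3.15% and 2.97% of all genes there. Leaving those libraries out gave 3 at RMA intermediate, 2 at RMA late, 1 between the intermediate groups (Ccne2) and 0 at RMA-KR late. The shares of all genes were then 1.48%, 1.68%, 0.501% and 0.574%. The cause of these differences was not tested. Size factors from DESeq2 and an added fold change above 2 changed no count of members.

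Over all genes, DESeq2 defaults called 939 in place of 401 at RMA intermediate, 1034 in place of 455 at RMA late and 665 in place of 208 at RMA-KR late. The compared groups alone gave 1246 and 811 at the RMA stages and 127 in place of 208 at RMA-KR late. From RMA early to late they gave 1 in place of 491.

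With the replicate block 1 member was called at RMA-KR late, Ccne1 having an edgeR adjusted p of 0.0509, and no other count of members changed. Genes called were 274, 289 and 117 at RMA intermediate, RMA late and RMA-KR late. Libraries with the same number had deviations with a correlation of -0.118 to 0.202 (64 pairs), and 5 of 24 correlated best with their own number. With so few libraries per group, this cannot show whether samples of equal number shared a sort or a preparation.

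For single members, 932 of 979 values under other settings kept their side of the threshold and their direction if called, 7 lost a call and 40 gained one; with a library left out these were 736 of 760, 22 and 2. No called value changed sign, and 28 and 40 uncalled values did. Depth limits Ccne2 most, with 3 counts in RMA-KR intermediate replicate 4.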
